A study of Flaveria angustifolia and Flaveria bidentis and Flaveria brownii with 21 samples.

Results

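Mitochondria-encoded loci of Flaveria leaves are described here. They are the 46 rows of the deposited expression table whose Arabidopsis locus identifier begins with ATM, out of 20551 loci. Membership was set by that identifier alone, but the group itself was chosen with earlier results of these data known. Flaveria, of the daisy family, holds C3 and C4 species and forms between them, and the series was collected to reconstruct its phylogeny. The 18 Flaveria libraries came from 11 species grown in a greenhouse, with 1 library per species and leaf stage, each from leaves pooled over several plants, and 3 out-group libraries of the series are not analysed here. Mature leaves, the newest that were fully expanded, gave 8 libraries, and juvenile leaves, the youngest ones starting to unfold from the main stem, gave 10. Both stages were present for F. angustifolia, F. bidentis, F. brownii, F. cronquistii, F. pringlei, F. pubescens and F. trinervia. F. kochiana had a mature library only, and F. palmeri, F. sonorensis and F. vaginata had a juvenile library only. The photosynthetic types are textbook knowledge and not labels. F. bidentis, F. kochiana and F. trinervia were taken as C4, F. brownii, F. palmeri and F. vaginata as C4-like, F. angustifolia, F. pubescens and F. sonorensis as C3-C4 intermediates, and F. cronquistii and F. pringlei as C3.

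Plant mitochondria keep a small genome of their own. It encodes some subunits of the respiratory complexes, a few ribosomal proteins, proteins that attach haem to cytochrome c, and a maturase that helps to splice introns, while all other mitochondrial proteins are encoded in the nucleus. Several mitochondrial genes, among them nad1, nad2 and nad5, are split in land plants into pieces that are transcribed apart and joined by trans-splicing. Mitochondrial transcripts mostly lack long poly(A) tails, and the sources used here do not give whether RNA with poly(A) tails was selected.

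Expression is given in RPM, reads scaled to a total of 1e+06 assigned reads per library. They are not divided by transcript length, so a difference between loci is one of reads and not of transcript level, and a locus's part of the mitochondrial reads is given as a share of reads. The libraries held 5.40 to 9.15 M assigned reads (M, 1e+06 reads), and 3 reads, taken as the floor, corresponded to 0.328 to 0.556 RPM. Of the 46 loci, 27 belonged to genes of known function in Arabidopsis: 13 of the 14 listed loci of complex I, 2 of 3 of complex IV, 3 of 6 of complex V, 4 of 5 of cytochrome c maturation, 2 of 7 of ribosomal proteins, both loci of the maturase and transporter group, and the rbcL-like locus ATMG00280, a fragment derived from the plastid. The other 19 keep their identifiers here. The remaining genes of the mitochondrial genome, the ribosomal RNAs and cob among them, are not analysed here. An average of 2 RPM or more was reached by 18 loci. The other 28 together held a median of 0.619% of the mitochondrial reads (range over libraries 0.241 to 2.03%), 22 loci had a read in every library, and 5 had 3 reads in no library.

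The mitochondrial total was 494 RPM at the lowest, 1813 RPM at the median and 6398 RPM at the highest in mature leaves (2237 ± 1791 RPM, mean ± SD, n = 8), against 1742, 4613 and 8030 RPM in juvenile leaves (4835 ± 2106 RPM, n = 10). The lowest library of either stage was F. trinervia, and the highest was F. brownii among mature and F. pringlei among juvenile libraries, so the stages overlapped widely across species. As a share of all assigned reads the loci made up 0.224 ± 0.179% in mature and 0.484 ± 0.211% in juvenile leaves. A lower share in whole leaves can come from fewer cells with many mitochondria or from less mitochondrial RNA per cell. It can also come from more reads at other loci, and these cannot be told apart here. The 50 loci with most reads of a library held 34.1 ± 4.82% of its reads in mature and 27.0 ± 3.36% in juvenile leaves. Reads of chloroplast loci, the other organelle, made up 0.915 ± 0.263% in mature and 1.00 ± 0.445% in juvenile leaves, and their share had a Spearman rho of 0.08 with the mitochondrial total over the 18 libraries.

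A single locus without a listed function, ATMG00030, held most of the mitochondrial reads. Its share was 87.5 ± 6.38% over the 18 libraries, from 76.2% in mature F. bidentis (95% exact binomial interval 75.5 to 76.9%, counting error only) to 96.1% in juvenile F. pubescens. The total therefore followed this locus closely, with a Spearman rho of 0.99 over the 18 libraries between a sum and its largest part. The other 45 loci together had 87.8, 284 and 418 RPM in mature leaves (lowest, median and highest; mean 261 ± 125 RPM), against 129, 449 and 1055 RPM in juvenile leaves (498 ± 304 RPM). Their sum ordered the species differently from ATMG00030, with rho = 0.58 between the 2 measures over the 18 libraries. Juvenile F. pubescens had the lowest juvenile sum of the other 45 loci, and juvenile F. vaginata had the highest sum of any library.

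**Figure D1:**
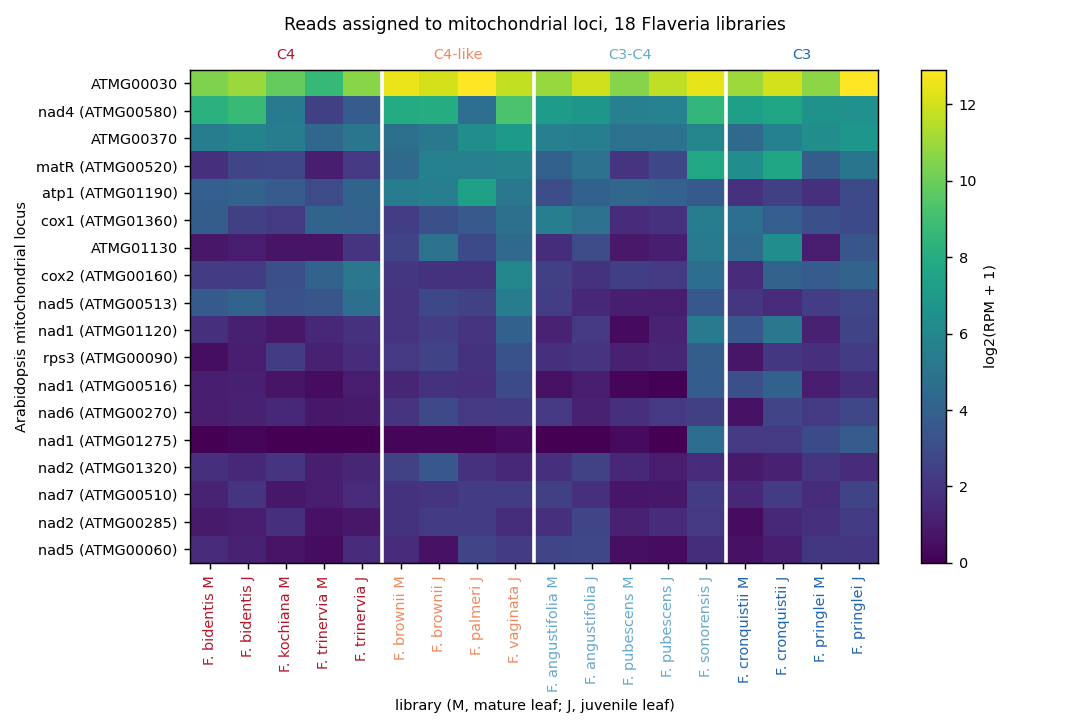
Colour gives log2(RPM + 1) of the 18 loci that averaged 2 RPM or more (rows, by mean) in each of the 18 libraries (columns, from C4 on the left to C3 on the right, M for mature and J for juvenile leaves). ATMG00030 is the brightest row in every library, and nad1 (ATMG01275) is bright only in F. sonorensis, F. cronquistii and F. pringlei.

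Among the complex I loci, which encode core subunits of the NADH dehydrogenase that feeds electrons into the respiratory chain, nad4 (ATMG00580) had the most reads. It had 4.48, 116 and 306 RPM in mature leaves (lowest, median and highest), against 12.6, 153 and 605 RPM in juvenile leaves. Both F. trinervia libraries were lowest of their stage, F. bidentis was highest of the mature and F. vaginata of the juvenile libraries, and juvenile F. palmeri, at 25.4 RPM, was the second lowest of the juvenile libraries. Of the reads of the other 45 loci, nad4 held 5.10 to 73.2% in mature and 6.32 to 76.5% in juvenile leaves, and it was the leading locus in 12 of the 18 libraries. The complex I group as a whole held a median of 50.6% of these reads in mature and 50.1% in juvenile leaves.

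The pieces of nad1 did not run in parallel. ATMG01120 and ATMG00516 had a Pearson r of 0.96 over the 18 libraries in RPM, and each was near r = 0.97 with matR (ATMG00520), the maturase gene that lies inside an intron of nad1 in plants. All 3 were high in F. sonorensis and F. cronquistii, which stand far from the other species in these relations. For ATMG01120 the values were 10.5 RPM in mature and 33.9 RPM in juvenile F. cronquistii and 38.5 RPM in juvenile F. sonorensis, against 0.279 to 15.2 RPM in the other 15 libraries. The piece ATMG01275 behaved otherwise. It had 3.49 to 24.4 RPM (19 to 184 reads) in the 5 libraries of F. cronquistii, F. pringlei and F. sonorensis. In the 13 libraries of the other 8 species it had at most 2 reads, with no read in 7 of them, so its level there was below the floor of 3 reads.

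Other complex I loci had fewer reads. The nad5 piece ATMG00513 had 1.12, 4.06 and 11.4 RPM in mature leaves (lowest, median and highest), against 0.968, 5.89 and 43.1 RPM in juvenile leaves. F. pubescens was lowest at both stages and juvenile F. vaginata was highest. The other nad5 piece, ATMG00060, ran from 0.323 to 5.73 RPM and had r = 0.09 with ATMG00513 over the 18 libraries. The 2 nad2 pieces ran from 0.917 to 10.5 RPM (ATMG01320) and from 0.367 to 5.55 RPM (ATMG00285). The loci of nad6 and nad7 stayed between 0.550 and 6.32 RPM and between 0.699 and 5.35 RPM. The loci of nad9, nad4L and nad3 had means under 2 RPM.

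Complex IV, cytochrome c oxidase, passes electrons to oxygen. Its locus cox1 (ATMG01360) had 2.10, 10.4 and 44.4 RPM in mature leaves (lowest, median and highest), against 2.58, 12.4 and 41.1 RPM in juvenile leaves. F. pubescens was lowest at both stages, and mature F. angustifolia and juvenile F. sonorensis were highest. The locus cox2 (ATMG00160) had 2.02 to 16.4 RPM in mature leaves (6.84 ± 5.13 RPM, mean ± SD), against 2.69 to 59.8 RPM in juvenile leaves (16.6 ± 18.7 RPM), with mature F. trinervia and juvenile F. vaginata highest. F. vaginata had no mature library. In the 7 species with both stages cox2 averaged 6.68 RPM in mature and 11.4 RPM in juvenile leaves, and was higher in mature leaves in 4. For cox1 these means were 16.2 and 11.1 RPM, with mature leaves higher in 5 of 7 species. Complex IV loci held 37.8% of the reads of the other 45 loci in mature F. trinervia, the largest share of any library, and at least 1.51% in every library.

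Complex V, the ATP synthase, was represented mainly by atp1 (ATMG01190), which encodes the alpha subunit of its catalytic head. It had 2.31, 9.67 and 43.7 RPM in mature leaves (lowest, median and highest), against 4.44, 15.9 and 165.8 RPM in juvenile leaves. F. brownii was highest of the mature and F. palmeri of the juvenile libraries, while both C3 species were lowest. In juvenile F. palmeri atp1 held 41.2% of the reads of the other 45 loci. The remaining complex V loci, atp4 and 1 locus of atp6, had at most 6.10 and 0.484 RPM.

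The maturase gene matR had 1.09, 9.23 and 80.7 RPM in mature leaves (lowest, median and highest), against 3.44, 39.8 and 205 RPM in juvenile leaves. Its highest libraries were F. cronquistii among mature and F. sonorensis among juvenile leaves, and F. trinervia was lowest at both stages. The transporter gene mttB averaged 0.893 RPM. The ribosomal protein loci rps3 (ATMG00090) and rpl16 ran from 0.385 to 12.9 RPM and from 0.179 to 5.64 RPM. The 4 loci of cytochrome c maturation, which attaches haem to cytochrome c, summed to 0.323 to 6.61 RPM per library. The rbcL-like locus had at most 0.787 RPM.

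After ATMG00030, the loci without a listed function were led by ATMG00370 and ATMG01130. ATMG00370 had 19.2, 34.8 and 81.3 RPM in mature leaves (lowest, median and highest), against 28.9, 52.4 and 130.4 RPM in juvenile leaves, the narrowest spread between species of the 10 loci with most reads. ATMG01130 had 0.612, 0.953 and 21.5 RPM in mature leaves, against 1.06, 8.44 and 78.3 RPM in juvenile leaves, with F. cronquistii highest at both stages. Its levels had a Spearman rho of 0.93 with those of matR over the 18 libraries.

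**Figure D2:**
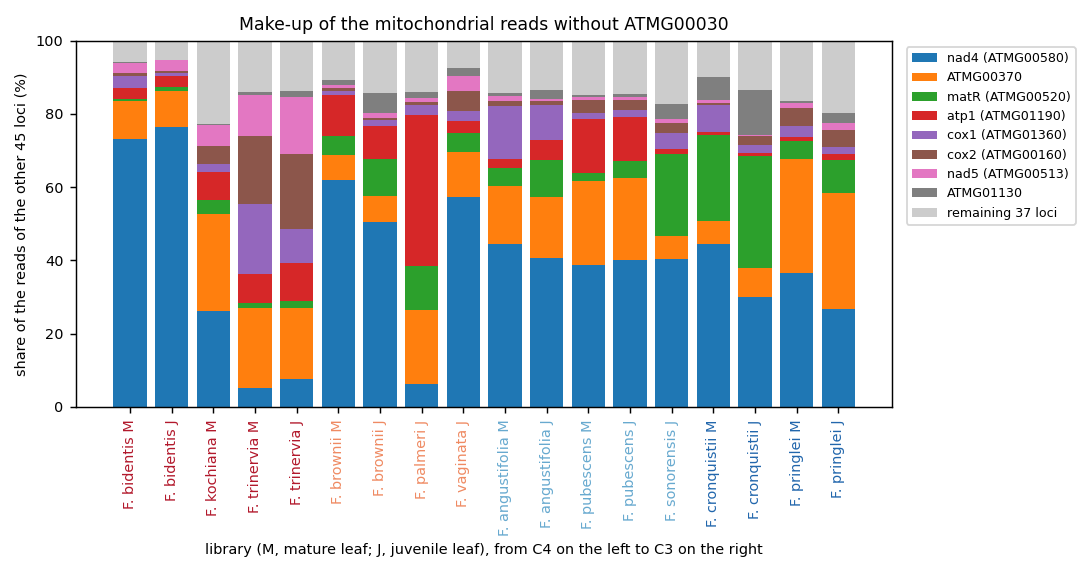
Each bar divides the reads of the other 45 loci, without ATMG00030, among 8 named loci and the remaining 37 in 1 library (percent, libraries from C4 on the left to C3 on the right, M for mature and J for juvenile leaves). The locus nad4 held 73.2% in mature and 76.5% in juvenile F. bidentis but 5.10% in mature and 7.59% in juvenile F. trinervia, and atp1 led in F. palmeri.

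The make-up of the mitochondrial reads was more alike between the stages of a species than between species. Spearman rho over the shares of the other 45 loci was 0.82 to 0.94 (median 0.89) for the 7 pairs of a mature and a juvenile library of the same species, and 0.64 to 0.91 (median 0.76) for the 42 such pairs of different species. Of the 7 mature libraries, 5 were closest to the juvenile library of their own species. The locus that led these 45 was nad4 in 12 libraries, ATMG00370 in 3, cox2 in juvenile F. trinervia, atp1 in juvenile F. palmeri and matR in juvenile F. cronquistii.

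Levels were then compared between the 7 species with both stages, in a fit with stage as a covariate that was added after the data were seen. With limma, 14 of 16 tested mitochondrial loci differed between species at an adjusted p under 0.05, where 41.5% of all 14500 loci tested did. Only nad7 and nad6 did not pass. The adjusted p was 4.2e-06 for matR, 2.33e-05 for nad4 and 0.00068 for atp1, and these 3 loci, cox1, ATMG00513, ATMG00516 and ATMG01130 passed under every alternative in which they were tested. Without F. trinervia the calls of ATMG00030, cox2 and ATMG00285 were lost, without F. pringlei that of ATMG00370, and without F. cronquistii that of ATMG01120. The call of rps3 was lost without any 1 of F. angustifolia, F. bidentis, F. pringlei, F. pubescens or F. trinervia, with TMM scaling, with edgeR, and with a pseudocount of 0.1. The call of ATMG00030 was also lost without a filter on low values (adjusted p = 0.0625), and that of ATMG01320 with TMM scaling (adjusted p = 0.0616). Within a stage, the highest mature library was 73.9-fold above the lowest for matR, 68.4-fold for nad4 and 14.8-fold for ATMG00030. Among juvenile libraries these ratios were 59.5-fold, 48.0-fold and 4.87-fold. How well Flaveria reads of each species could be assigned to an Arabidopsis locus was not tested.

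Leaf stage was compared within the 7 species that had both. The mitochondrial total was lower in the mature than in the juvenile leaves of 6 of 7 species. It was 494 RPM in mature against 1742 RPM in juvenile F. trinervia, 1870 against 8030 RPM in F. pringlei, and 6398 against 4755 RPM in F. brownii, the exception. The log2 difference of the total, mature minus juvenile, averaged -0.996 ± 0.831 (SD, n = 7), with -2.10 in F. pringlei as the lowest and 0.43 in F. brownii as the highest. For ATMG00030 it averaged -1.06 ± 0.90, and for the sum of the other 45 loci -0.42 ± 0.39, with F. angustifolia (0.13) the only species above 0. The sum of these 45 loci was lower in mature F. brownii too (389 RPM in mature against 495 RPM in juvenile leaves). These sums were not rescaled by TMM, and the median log2 fold change of all loci tested was itself -0.31.

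**Figure D3:**
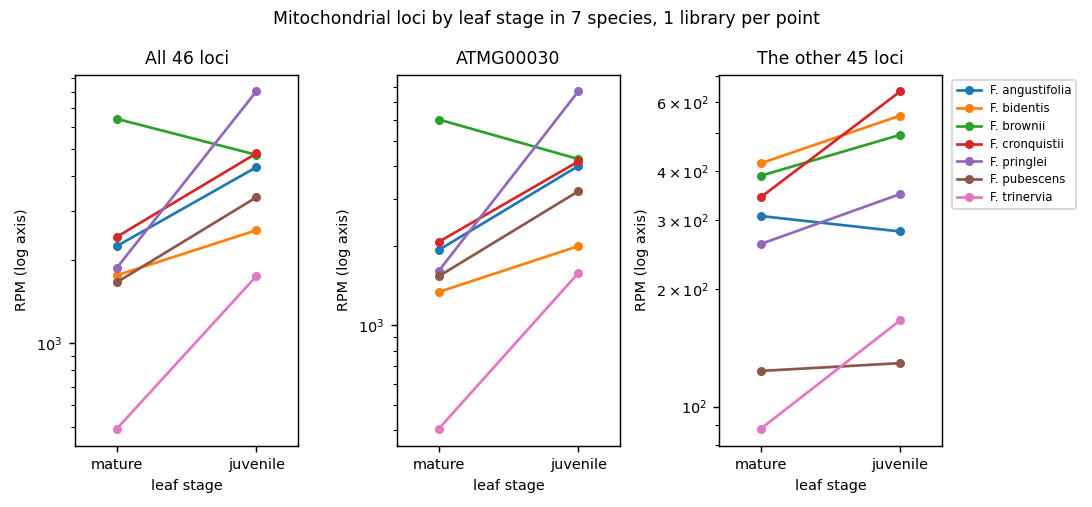
Points give RPM (log axis) of all 46 loci, of ATMG00030 and of the other 45 loci in mature (left) and juvenile (right) leaves, joined within each of 7 species. The line of F. brownii runs against those of the other 6 species in the first 2 panels (6398 RPM in mature against 4755 RPM in juvenile leaves for all 46 loci), and that of F. angustifolia in the third.

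Of 16 mitochondrial loci tested, 7 were lower in mature leaves and 0 were higher, in a limma fit with species as a block and Benjamini-Hochberg adjustment over all loci. In the same fit 50.3% of the 14500 loci tested were called, with 37.6% lower and 12.7% higher, so the share of mitochondrial loci called lower was close to the background. The median log2 fold change was -0.46 for the 16 loci and -0.31 for all loci, a difference of -0.15.

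The maturase gene matR fell by 1.07 on the log2(RPM + 1) scale (SE 0.15, adjusted p = 0.000159) and was lower in mature leaves in 7 of 7 species. ATMG00030 fell by 1.06 (SE 0.27, adjusted p = 0.00683), lower in 6 of 7 species, and ATMG01130 fell by 1.32 (SE 0.28, adjusted p = 0.00219), lower in 7 of 7. Relative to the median of all loci the changes of these 3 were -0.76, -0.75 and -1.02. The other 4 calls were nad1 (ATMG01120, log2 fold change -0.72, adjusted p = 0.0401), atp1 (-0.57, adjusted p = 0.0363), rps3 (-0.54, adjusted p = 0.0428) and nad2 (ATMG00285, -0.53, adjusted p = 0.0485). The locus cox1 was the only 1 of 16 with a positive estimate, 0.32 ± 0.24 (SE), adjusted p = 0.287, with higher RPM in mature leaves in 5 of 7 species. The estimates for nad4 (-0.28, adjusted p = 0.229) and cox2 (-0.42, adjusted p = 0.282) did not pass either. As shares of the other 45 loci, matR and ATMG01130 were also lower in mature leaves in 7 of 7 species. As shares of the mitochondrial total, which holds ATMG00030, matR was higher in mature leaves in 3 of 7 species and ATMG01130 in 2 of 7.

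Scaling by TMM moved the median of all loci by 0.31 on the log2 scale, to 0.00, and left 3 mitochondrial loci called, all lower, where 21.8% of all loci were lower and 23.2% higher. These were ATMG00030 (log2 fold change -0.71, adjusted p = 0.0420), matR (-0.78, adjusted p = 0.00154) and ATMG01130 (-1.10, adjusted p = 0.00744), the same loci that edgeR called on the recovered reads, and each was also called with any 1 species left out. The estimates of nad4, of nad2 (ATMG01320) and of nad5 (ATMG00513), none of them called, were above 0 under TMM. That of cox1 was 0.62 with TMM (adjusted p = 0.0590) and 0.73 with edgeR (adjusted p = 0.0512). The other 4 calls were lost when single species were left out. None of the 4 passed without F. angustifolia, F. cronquistii, F. pringlei or F. trinervia, ATMG01120 and atp1 passed without F. bidentis or F. brownii, and rps3 and atp1 passed without F. pubescens. ATMG00370, with an adjusted p of 0.0522 in all 7 species, passed without F. angustifolia or F. pubescens. In all, 3 loci passed without F. cronquistii, F. pringlei or F. trinervia, 4 without F. angustifolia, 5 without F. bidentis or F. brownii, and 6 without F. pubescens. All were lower, out of 15 to 18 tested. Of all loci, 30.75% (without F. pringlei) to 39.04% (without F. brownii) were called lower in these fits.

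**Figure D4:**
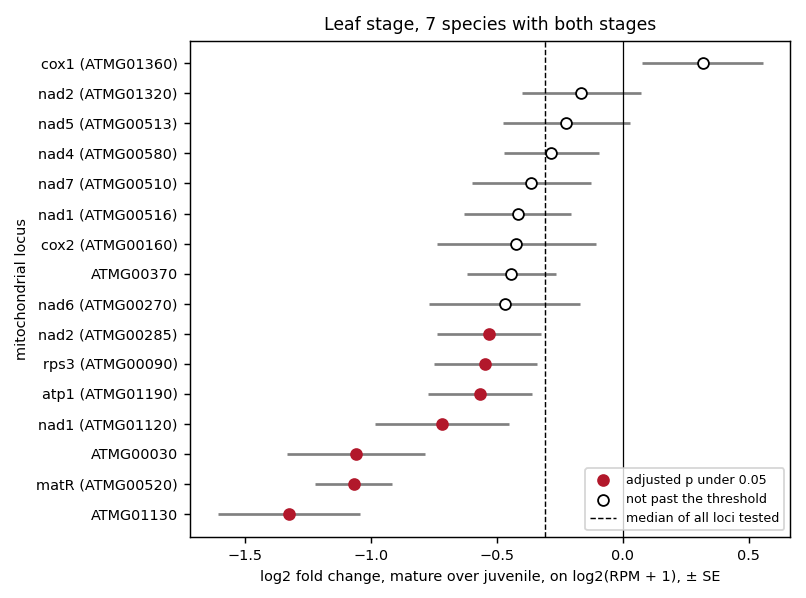
Log2 fold changes, mature over juvenile, on the log2(RPM + 1) scale with their SE, are shown for the 16 mitochondrial loci tested in 7 species. Filled points mark the 7 loci with an adjusted p under 0.05, all left of the dashed line at the median of all loci (-0.31), and cox1 stands alone on the positive side.

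The stage difference itself was then set between the 3 C4 and C4-like species with both stages (F. bidentis, F. trinervia and F. brownii) and the other 4. With limma 0 of 16 mitochondrial loci passed, where 0% of 14500 loci did. At an unadjusted p under 0.05 there were 2 of the 16 mitochondrial loci, where 1027 of the 14500 loci were. With edgeR 0 mitochondrial loci were called too, and 0 of all loci.

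Photosynthetic types were compared over the 18 libraries in a fit that held a stage term and treated species as a random block. Species of a type can share ancestry, and no fit here holds a term for it, so type and ancestry cannot be told apart. Of 18 mitochondrial loci tested, atp1 differed in the comparison of C4-like with C3 species. It had 43.7 RPM in mature and 45.2 RPM in juvenile F. brownii, 165.8 RPM in juvenile F. palmeri and 35.2 RPM in juvenile F. vaginata, against 2.57 RPM in mature and 4.44 RPM in juvenile F. cronquistii and 2.31 RPM in mature and 6.30 RPM in juvenile F. pringlei. Every C4-like library was above every C3 library, but atp1 was named for its call from the same values. How many of all loci show such a separation was not counted. The log2 fold change was 3.58 ± 0.49 (SE), with an adjusted p of 0.00425 by limma, and 0.2% of the 14479 loci tested were called in this contrast (0.152% higher and 0.0483% lower). The call was lost without F. cronquistii (3.51, adjusted p = 0.0927), in juvenile libraries alone (3.37, adjusted p = 0.0829) and in mature libraries alone (3.70, adjusted p = 0.241), and with 1 mean value per species the adjusted p was 0.0464.

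With C4 and C4-like species as 1 group against C3 and C3-C4 species, atp1 was again the only mitochondrial locus called by limma (log2 fold change 1.85 ± 0.33, adjusted p = 0.00439), where 1.4% of loci were called (0.974% higher and 0.428% lower). The C4 libraries alone had a median of 13.3 RPM of atp1 and overlapped with the C3-C4 libraries, which had 7.42 to 18.0 RPM, and against C3 species the C4 estimate for atp1 was 1.62 ± 0.48 (adjusted p = 0.109). In the contrast of the 2 groups edgeR, without a species term, called atp1 and ATMG01275, where it called 637 of the 14479 loci. The contrast shares its C4-like libraries with the one before. The call was lost in juvenile libraries alone (adjusted p = 0.0967) and in mature libraries alone (adjusted p = 0.289).

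Between C4 and C3 species 0 of 18 mitochondrial loci passed with limma, where 1.27% of the 14479 loci did (0.801% higher and 0.47% lower). At an unadjusted p under 0.05 there were 7 of the 18, where 2033 of the 14479 loci were. Without a species term edgeR called 4 (matR, ATMG01130, atp1 and ATMG01275), where it called 1123 of the 14479 loci. The lowest adjusted p was that of matR, 0.0516, with a log2 fold change of -3.40 ± 0.84. It had 2.31 RPM in mature and 5.42 RPM in juvenile F. bidentis, 5.66 RPM in mature F. kochiana, and 1.09 RPM in mature and 3.44 RPM in juvenile F. trinervia. In the C3 species it had 80.7 RPM in mature and 196 RPM in juvenile F. cronquistii, and 12.8 RPM in mature and 31.5 RPM in juvenile F. pringlei. These ranges did not overlap, but matR was named for its low adjusted p from the same values. How many of all loci have ranges that do not overlap was not counted. The call of matR was made in 8 of 21 alternatives, with adjusted p-values from 0.0073 to 0.636. Without F. kochiana, F. pubescens or F. sonorensis 1 mitochondrial locus passed, where 169 of 14467 to 261 of 14516 loci did. Without F. pringlei 2 passed, where 145 of 14491 loci did. Without F. cronquistii the estimate for matR was -2.11. With 1 mean value per species the adjusted p of matR by limma was 0.272. Between C3-C4 and C3 species 0 mitochondrial loci passed with limma, where 0% of loci did. At an unadjusted p under 0.05 there was 1 mitochondrial locus, where 744 of the 14479 loci were. With edgeR 0 mitochondrial loci were called, where 14 of the 14479 loci were.

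Chromosome 2 of Arabidopsis carries a copy of the mitochondrial genome, so reads of a mitochondrial transcript can be assigned to a nuclear identifier. The table held 14 identifiers from the range of that copy. They were taken by identifier number alone, so ordinary nuclear genes may be among them. The largest was AT2G07706, with a mean of 436 RPM, and AT2G07698 followed with 130.3 RPM. AT2G07706 was not paired with a mitochondrial locus here. AT2G07698 had 22.5 to 785 RPM, 2.43 to 16.3 times as many reads as atp1 in the same library (median 5.91), and was highest in the same library, juvenile F. palmeri. Over the 18 libraries Pearson r between the 2 was 0.99 in RPM, where F. palmeri stands far from the rest, and Spearman rho was 0.81. In the C4-like against C3 comparison its log2 fold change was 2.49 ± 0.53, with an adjusted p of 0.0607 by limma. How reads were divided between such identifiers is not given in the sources used here. Other pairs, each over 18 libraries that share their depth, were ATMG00160 (cox2) with AT2G07695 at r = 0.95 (rho 0.91), ATMG01330 with AT2G07689 at r = 0.95 (rho 0.79), and ATMG01275 with AT2G07785 at r = 0.88 (rho 0.51). AT2G07689 and AT2G07785 averaged 0.913 and 0.799 RPM. ATMG01330 had 3 reads or more in 8 libraries and ATMG01275 in 5, so r rests on a few libraries in these pairs.

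**Figure D5:**
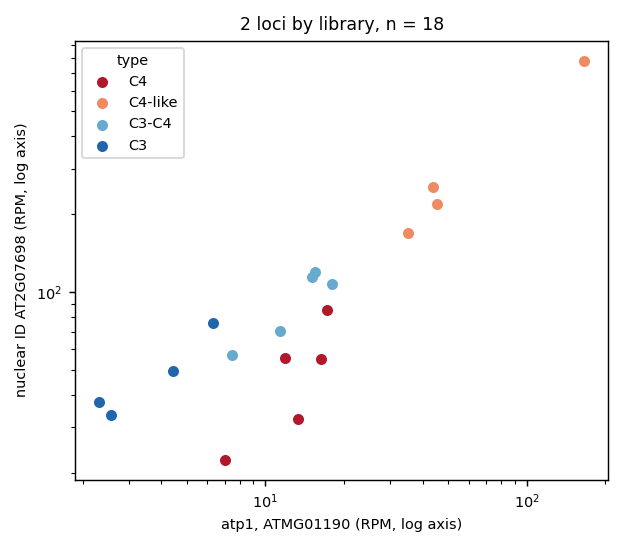
Each point is 1 of the 18 libraries, with RPM of atp1 (ATMG01190) on the x axis and RPM of the nuclear identifier AT2G07698 on the y axis, both log axes, coloured by photosynthetic type. The 4 C4-like libraries lie highest on both axes (35.2 to 165.8 RPM of atp1), and the C3 libraries lie lowest on the x axis.

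Nuclear genes of mitochondrial proteins were set beside these loci, from 9 lists with 72 loci. In mature leaves 30 of 42 nuclear genes of complexes I to V were lower than in juvenile leaves and 0 were higher (median log2 fold change -0.54), where 37.6% of all loci were lower and 12.7% higher. By complex, 13 of 17 were lower for complex I, 2 of 3 for complex II, 4 of 9 for complex III and cytochrome c, 4 of 5 for complex IV and 7 of 8 for complex V. The largest changes per list included the complex I subunit NDUFA8 (20.4 RPM in mature against 49.6 RPM in juvenile leaves, means of 7 species; log2 fold change -1.14 ± 0.19, adjusted p = 0.000399), the complex II iron-sulfur subunit SDH2-2 (-0.96), the complex IV subunit COX6B (-0.95) and the complex V subunit MGP1 (-0.92). With TMM scaling, which centres all loci, 5 of these 42 were lower and 1 was higher, with a median of -0.20, where 21.8% of all loci were lower and 23.2% higher. Without F. brownii 32 were lower and 0 higher, where 39.04% of all loci were lower and 11.02% higher.

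Among nuclear genes that copy and guard mitochondrial DNA, 3 of 5 were lower in mature leaves, led by MSH1, which limits recombination between repeats (log2 fold change -1.27 ± 0.24, adjusted p = 0.00112), and the helicase and primase TWINKLE (-1.12 ± 0.14, adjusted p = 7.72e-05). Of 13 tested genes for transcription and RNA processing in mitochondria 6 were lower, a share near the 37.6% of all loci, including the phage-type RNA polymerases RPOTmp (-0.74) and RPOTm (-0.63). With TMM scaling, where 21.8% of all loci were lower, these counts were 2 of 5 and 0 of 12. All 5 markers of the mitochondrial matrix and membranes were lower, among them the chaperonin HSP60 (-1.22) and the porin VDAC1 (-0.61), and 1 of 5 was with TMM scaling.

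The alternative oxidases, nuclear-encoded enzymes that pass electrons to oxygen without pumping protons, differed from the other lists in direction: 5 of 5 were higher in mature leaves, with a median log2 fold change of 2.21, and 5 of 5 were with TMM scaling or edgeR. These genes are close relatives and reads could have been split between them, so their RPM are given as a sum. The 5 loci together had 392 ± 229 RPM in mature leaves, from 155 to 715 RPM, against 76.5 ± 46.8 RPM in juvenile leaves, from 25.9 to 161 RPM (SD, n = 7). The sum was higher in mature leaves in 7 of 7 species. The log2 fold changes of single loci ran from 1.52 to 2.43. No gene of the nuclear lists was called by limma in the type comparisons or in the comparison of the stage difference between types. In these comparisons 0 to 1.4% of all loci were called, so a count of 0 among the 70 tested genes is near that share.

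The nuclear loci whose RPM ranked most like the mitochondrial total over the 18 libraries were, as a description, AT3G19840 (Spearman rho 0.88), AT3G55870 (0.88), AT2G29200 (0.87), AT5G12290 (0.87) and AT5G46400 (0.86), the highest of 14461 loci ranked. AT3G19840 ran from 6.28 to 20.6 RPM.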

How the data were processed

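Leaf RNA of 18 Flaveria libraries was sequenced on the Illumina platform after hot phenol extraction and DNase treatment, per the labels' protocols. From these the authors made a deposited table of RPM for 20551 Arabidopsis loci, in which each library sums to 1e+06. TAIR10 is named as the build, per the submitters' processing notes. The aligner, how reads were counted and what was done with reads that match more than 1 locus are not given in the sources used here. Of the deposited RPM values 100% were whole multiples of 1 read (tolerance 0.001 of a read), which gave back the read counts. No file pairs the loci with gene names. Symbols are general knowledge of the Arabidopsis genomes and were given only to loci of the lists, of which 27 of 42 mitochondrial and 72 of 72 nuclear loci had a row.

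Tests used limma 3.58.1 (R 4.3.3) with a mean trend on log2(RPM + 1), for loci that averaged 2 RPM or more in the fit's libraries, two-sided, with Benjamini-Hochberg adjustment over all loci tested and a threshold of 0.05. Fold changes on this scale understate those of low loci. Stage was fitted in 14 libraries of 7 species with species as a block, since the labels name the species. Types were fitted in 18 libraries with a stage term and a random block for species (statmod 1.5.0, correlation 0.493). P-values for stage measure the spread between species, not between plants. Those for type rest on libraries, where the 2 stages of a species are tied by 1 correlation shared by all loci. For loci whose stages are more alike than that, they understate the spread between species. The alternative with 1 mean value per species does not have this limit. In the comparison between species the 2 stages of a species stood as its replicates. Its p-values rest on how the stage difference varied, and cannot tell a species from its single pooled samples. Sums over loci were not tested. Alternatives were other pseudocounts and filters, TMM, edgeR 4.0.16 on the recovered counts, no species term, single stages, 1 mean per species, and each species left out. The fits were tested on simulated data. Python 3.11.15 was used for summaries and matplotlib 3.10.9 for plots. The loci and lists were chosen with earlier results of these data known. Named loci were the 15 mitochondrial loci with the highest mean, those of the functional groups (at least by range), all that were called, up to 3 per nuclear list, and the 5 nearest loci. ATMG01330 and the other pairs with chromosome 2 identifiers were named after their values were seen.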

Additional observations from a re-analysis of the deposited data

Results flagged for a closer look

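Libraries were taken in 36 groups (18 measures at 2 stages). In each, the gap between an extreme library and its neighbour was set against the range of the group. By Dixon's criterion 11 values stood apart, each the highest of its group. The criterion's rate of about 1 in 20 groups holds for independent, normally distributed values. These measures run together in part and were taken across species without a log scale, so the count of 11 cannot be read against that rate. Replicates within a group are different species, so a value that stands apart may be a species. Mature F. brownii stood above the other mature libraries in the mitochondrial total (6398 RPM, next 2414 RPM), in ATMG00030 (6009 RPM, next 2071 RPM) and in atp1 (43.7 RPM, next 18.0 RPM). Juvenile F. brownii stood apart in nad2 (ATMG01320, 10.5 RPM, next 4.66 RPM). Mature F. cronquistii stood apart in matR (80.7 RPM, next 20.8 RPM), ATMG01130 (21.5 RPM, next 5.34 RPM), nad1 ATMG01120 (10.5 RPM, next 2.89 RPM) and nad1 ATMG00516 (7.89 RPM, next 1.59 RPM), and juvenile F. cronquistii in ATMG01130 (78.3 RPM, next 37.8 RPM). Juvenile F. palmeri stood apart in atp1 (165.8 RPM, next 45.2 RPM), and juvenile F. sonorensis in nad1 ATMG01275 (24.4 RPM, next 12.3 RPM). F. brownii was also the only species of 7 whose total was higher in mature leaves, with a log2 difference of 0.43 against -2.10 to -0.54 in the other 6. That difference rests on 1 library per stage and was not tested.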

How the results depend on the processing

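The count of 7 of 16 mitochondrial loci that changed with stage (7291 of all 14500 loci) became 3 of 17 with TMM scaling (6517 of 14474 loci called). It became 3 of 16 with edgeR (6341 of 14500) and 0 of 16 in the fit without the replicate block of species (3840 of 14500). With 1 species left out it was 3 to 6, where 6023 of 14494 to 7187 of 14358 loci were called. The pairing by species comes from the labels. For C4 against C3 species the count of 0 of 18 became 1 with a pseudocount of 0.5 (176 of 14479 loci called) and 1 with a pseudocount of 0.1 (157 of 14479). It became 1 of 8 with a filter at a mean of 10 RPM (138 of 8974). It was 4 of 18 with edgeR, which has no species term there and called 1123 of 14479 loci. With 1 species left out it was 0 to 2, where 38 of 14432 to 261 of 14516 loci were called. For C4-like against C3 species the count of 1 became 0 in juvenile libraries only and 0 in mature libraries only. With 1 species left out it was 0 to 1, where 3 of 14432 to 79 of 14384 loci were called. For C4 and C4-like against the other species it became 2 with edgeR (637 of 14479 loci called), 0 in juvenile libraries only and 0 in mature libraries only. In juvenile libraries only, 0 of all 14536 loci passed in the first of these 2 comparisons and 36 of 14536 in the second. In mature libraries only, 0 of 13909 passed in the first and 7 of 13909 in the second. The 14 of 16 loci that differed between species (41.5% of all loci) became 22 of 45 without a filter on low values (29.6% of all loci). They became 7 of 7 tested with a filter at 10 RPM (44.35% of all loci), and 11 to 15 with 1 species left out (30.05 to 41.75% of all loci). The mean share of ATMG00030 was 72.3% with all chromosome 2 identifiers of the range added to the total, ordinary nuclear genes possibly among them. In all, 126 recomputed counts and totals moved little and 24 moved, where a change from 7 to 5 counted as little. The 126 hold the reruns of C3-C4 against C3 species and of the stage difference between types. Few or none of all loci passed in those, so their counts of 0 say little about stability. Of the called loci, 267 recomputed values passed the threshold again and 56 did not. None of those for stage or type had the opposite direction. The comparison between species has no direction, so a reversal could not show there. Loci under the floor of 3 reads were below detection at this depth, with 1 library per species and stage.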
